A study of Mus musculus with 14 samples.

Results

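Day 3 after stroke was compared with sham in microglia, the resident macrophages of the brain, sorted from the cerebral cortex of C57BL/6 mice aged 8 to 10 weeks. The comparison uses 4 of the 14 libraries of the series, 2 from day 3 and 2 from sham, and covers 13861 of the 14084 genes counted. Stroke was made by a lasting ligation of the distal middle cerebral artery together with 7 min of closure of both common carotid arteries. The sham mice had lesions of the skull surface and no arterial closure. The other groups, days 1, 7, 21, 60 and 90 after stroke, enter here through the shared estimate of spread and through direct tests between times. The labels give no sort gate and no sampling time for sham. They also do not say that libraries of 1 group are different animals, and the p-values below therefore reflect variation among libraries that may be technical.

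Microglia hold their identity through a set of transcription factors and surface receptors, and respond to dying tissue by engulfing debris, by secreting cytokines and chemokines, and by dividing. After focal ischemia the dead tissue is taken up and digested in lysosomes, which loads the cells with lipid and with iron from red cells. Blood leukocytes can enter the same tissue, and some of their surface markers are shared with microglia.

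A gene is called changed here where edgeR's quasi-likelihood test gave a Benjamini-Hochberg adjusted p under 0.05 over all genes tested and where both day 3 libraries lay above, or both below, both sham libraries. Among 13861 genes 1147 met both conditions (8.28%), 721 of them higher (5.2%) and 426 lower (3.07%) at day 3. The adjusted p alone gave the same 1147 genes. Counts in this paragraph with a library left out or with limma-voom go by adjusted p alone. The count depended on single libraries: it was 225 without sham replicate 1, 228 without sham replicate 2, 611 without day 3 replicate 1, 391 without day 3 replicate 2, 1785 without day 21 replicate 1 and 1815 without day 21 replicate 2. The balance of directions moved as well: 62.9% of the calls were higher, but 82.1% without day 3 replicate 2, 80.2% without day 3 replicate 1 and 48.4% with limma-voom, which called 673 genes higher and 718 lower. Position alone is a weak condition with 2 libraries a side, since 7401 genes (53.4%) had libraries that did not overlap, 4005 higher (28.9%) and 3396 lower (24.5%). Levels are CPM, counts relative to the library total scaled by TMM factors, each pair of values gives replicate 1 first and replicate 2 second, and each log2 fold change fitted by edgeR is followed by its standard error (SE) and adjusted p, in parentheses where both stand alone.

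Total counts were 15254983 and 100625099 in sham and 16328102 and 149992816 at day 3, so replicate 2 was far deeper in both groups. At these totals 3 counts correspond to 0.197 and 0.0298 CPM in sham and to 0.184 and 0.02 CPM at day 3, before TMM scaling. Log2 CPM of the 2 libraries of a group had r = 0.92 over genes in sham and 0.903 at day 3, and their counts differed by far more than sampling noise, with a chi-square per degree of freedom of 473 and 605. Totals and replicate number run together, so a value that differs between replicates 1 and 2 may follow depth, and this was not tested.

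Some defining markers of the sorted cell type were low in the sham libraries and others were not. Tmem119, a surface protein of resident microglia, had 16.9 and 2.48 CPM in sham and 289.5 and 271 CPM at day 3, and the transcription factor gene Sall1, which keeps microglial identity, had 0.424 and 0.214 CPM in sham and 3.42 and 19.3 CPM at day 3. C1qa, the complement subunit that microglia make in quantity, was at 8.61 and 2.66 CPM in sham and 1984 and 1455 CPM at day 3. Cx3cr1 and Csf1r, also microglial receptors, overlapped between the groups, with sham values given below, and the 29 homeostatic genes summed to 7148 and 4972 CPM in sham and to 8324 and 24000 CPM at day 3. Markers of blood cells were high in the same sham libraries: the 16 neutrophil markers summed to 22370 and 33390 CPM there and to 3881 and 941.5 CPM at day 3 (sums are CPM of total counts without TMM factors). For 17 monocyte markers the sums were 12070 and 14970 CPM in sham and 3747 and 4484 CPM at day 3, for 11 mast cell and basophil markers 1233 and 966.8 against 112.6 and 49.4 CPM, and for 5 erythroid markers 207 and 211 against 1.04 and 0.167 CPM. Of those lists 13, 12, 6 and 4 members lay lower at day 3 without overlap, set against 24.5% of all genes, and 1, 1, 0 and 2 were called lower. In sham no neutrophil, monocyte or erythroid marker was at 0 in both libraries, and 3 mast cell and basophil markers were. At day 3 no neutrophil or monocyte marker was at 0 in both libraries, and 2 erythroid and 2 mast cell and basophil markers were.

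**Figure D1:**
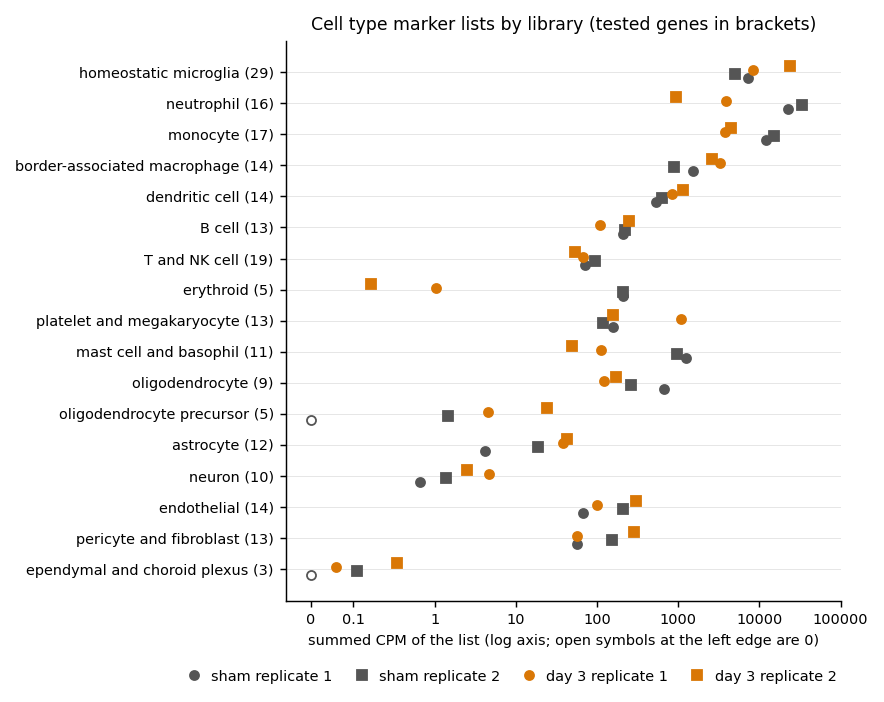
Summed CPM of each cell type marker list (log axis) in the 2 sham and the 2 day 3 libraries, with the number of tested genes in brackets. The neutrophil list lies between 22370 and 33390 CPM in sham and between 941.5 and 3881 CPM at day 3, and the erythroid list goes from 207 and 211 CPM to 1.04 and 0.167 CPM, while the homeostatic microglia list is higher at day 3, with 7148 and 4972 CPM in sham and 8324 and 24000 CPM at day 3.

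These blood cell values stand beside every comparison with sham below, and their part in the results was not tested. In bulk RNA of a sorted population, fewer cells of a type and less RNA per cell cannot be told apart. Markers of 3 further blood lineages also lay lower at day 3 without overlap in most members, 11 of 13 for B cells (median log2 fold change -4.31), 15 of 19 for T and NK cells (-3.05) and 11 of 13 for platelets and megakaryocytes (-5.91). Of these markers 7, 2 and 4 were called lower, against 3.07% of all genes. Without overlap, 24.5% of all genes lay lower. Dendritic cell markers summed to 539 and 625 CPM in sham and 828 and 1136 CPM at day 3, and B cell markers to 207 and 222 against 108 and 244.5 CPM, a sum that holds Blnk, which was higher at day 3. T and NK cell markers summed to 70.1 and 94.3 CPM in sham and 67.9 and 53.2 CPM at day 3. For platelet and megakaryocyte markers the sums overlapped, at 158 and 117 against 1090 and 155.6 CPM, and they hold Pf4, which was higher at day 3. The lists of astrocyte, neuron, oligodendrocyte precursor and ependymal markers summed to at most 43 CPM in any of the 4 libraries. Other brain cell lists had larger sums. Oligodendrocyte markers summed to 664 and 263 CPM in sham and 123 and 171.5 CPM at day 3, lower without overlap. Endothelial markers summed to 66.9 and 208 against 99.1 and 303 CPM, and pericyte and fibroblast markers to 56.7 and 154 against 56.8 and 284 CPM. The endothelial sums overlapped between the groups, as did those of pericytes and fibroblasts.

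Both replicate fold changes of a called gene share a sign by the definition of a call. The median log2 fold change was 3.78 among the 721 higher genes and -2.7 among the 426 lower ones, against 0.154 over all genes. In 710 of the higher and 424 of the lower genes the fold change was over 2-fold in each replicate number taken alone, and in 521 and 267 it was over 4-fold in each. In 209 called genes the 2 log2 fold changes still differed by over 2 log2 units. The call held for 127 genes, 94 higher and 33 lower, with each of the 14 libraries left out in turn and under each of the other settings tried.

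**Figure D2:**
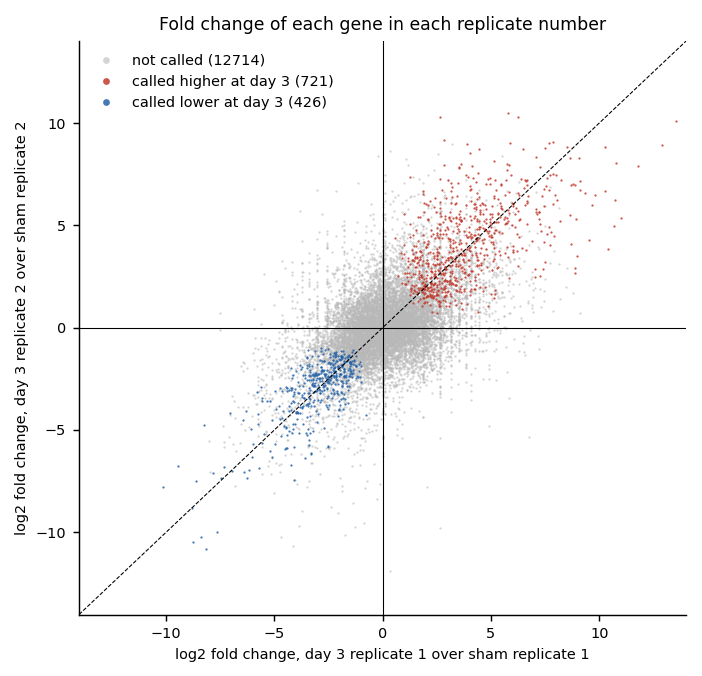
Log2 fold change of each of 13861 genes in replicate 1 (day 3 over sham, horizontal) against that in replicate 2 (vertical), with a prior count of 2 and a dashed line of equality. The 721 genes called higher and the 426 called lower lie in the upper right and lower left of the plot, and the other genes were not called.

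The 12 genes with the largest called rise at a level of at least 20 CPM were Ifnb1, Arg1, Npnt, Gpnmb, Syngr1, Il1a, C1qb, Ccl7, Dab2, Gas6, C1qa and Areg. Ifnb1 encodes interferon beta and had no count in either sham library, 43.7 and 6.63 CPM at day 3. Against a floor of 3 counts over both sham libraries it was at least 844-fold higher (adjusted p = 0.00154). Dab2, an adaptor of receptor endocytosis, had 0.0606 and 1.96 CPM in sham and 305 and 475 CPM at day 3. Its log2 fold change was 11.80 and 7.9 in the 2 replicate numbers in the fit 8.5 ± 1.21 SE, adjusted p = 0.00274. Syngr1, a membrane protein of small vesicles, had 0.485 and 0.547 CPM in sham and 632 and 262 CPM at day 3 (9.74 ± 1.64 SE, adjusted p = 0.00696). Npnt, which encodes the matrix protein nephronectin, had 1 count in the sham libraries together and 4.74 and 35.4 CPM at day 3 (adjusted p = 0.00446). Ifnb1 and Dab2 kept their calls with each of the 14 libraries left out in turn. Syngr1 and Npnt lost theirs in some of these fits, with adjusted p up to 0.0753 for Syngr1 without sham replicate 1 and 0.0538 for Npnt without sham replicate 2.

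Among the 12 largest falls were those of Ces1d, Faim3, Alas2, Tubb1, Ms4a1, Cd79a, Rnf144a, Scnn1a, Slc2a3, Bmx and Vnn3. Several of them are known from blood cells: Alas2 makes heme in red cell precursors, Tubb1 is the tubulin of platelets, and Ms4a1 and Cd79a are B cell surface genes. Alas2 had 181 and 244 CPM in sham and 0.395 and 0.145 CPM at day 3, and Ms4a1 had 27.6 and 30.1 CPM in sham and 0.132 and 0.157 CPM at day 3, each with both day 3 libraries far under both sham libraries. Slc2a3, a glucose transporter of high affinity, had 1026 and 558 CPM in sham and 15.8 and 10.7 CPM at day 3 (-5.9 ± 1.5 SE, adjusted p = 0.0379). Vnn3, which encodes a vanin family pantetheinase, fell by 5.2 and 6.04 log2 units in the 2 replicate numbers, from 73.2 and 90.3 CPM to 1.97 and 1.35 CPM (-5.64 ± 0.67 SE, adjusted p = 0.00117). Bmx, a Tec family tyrosine kinase of myeloid cells, went from 95.3 and 155 CPM to 2.76 and 1.89 CPM (-5.76 ± 0.88 SE, adjusted p = 0.00392), and Scnn1a, a sodium channel subunit, from 165 and 164 CPM to 3.09 and 1.36 CPM (-6.24 ± 0.96 SE, adjusted p = 0.00426). Ces1d, a carboxylesterase, had 7.09 and 44.5 CPM in sham and no count at day 3, at least 1611-fold lower against 3 counts over both day 3 libraries (adjusted p = 0.0095). Ms4a1, Vnn3, Bmx and Scnn1a kept their calls with each of the 14 libraries left out in turn. Alas2, Slc2a3 and Ces1d lost theirs in some of these fits, with adjusted p up to 0.157 for Alas2, 0.195 for Slc2a3 and 0.0872 for Ces1d without day 3 replicate 2. Alas2 and Slc2a3 passed in 9 and 4 of the 14, respectively.

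**Figure D3:**
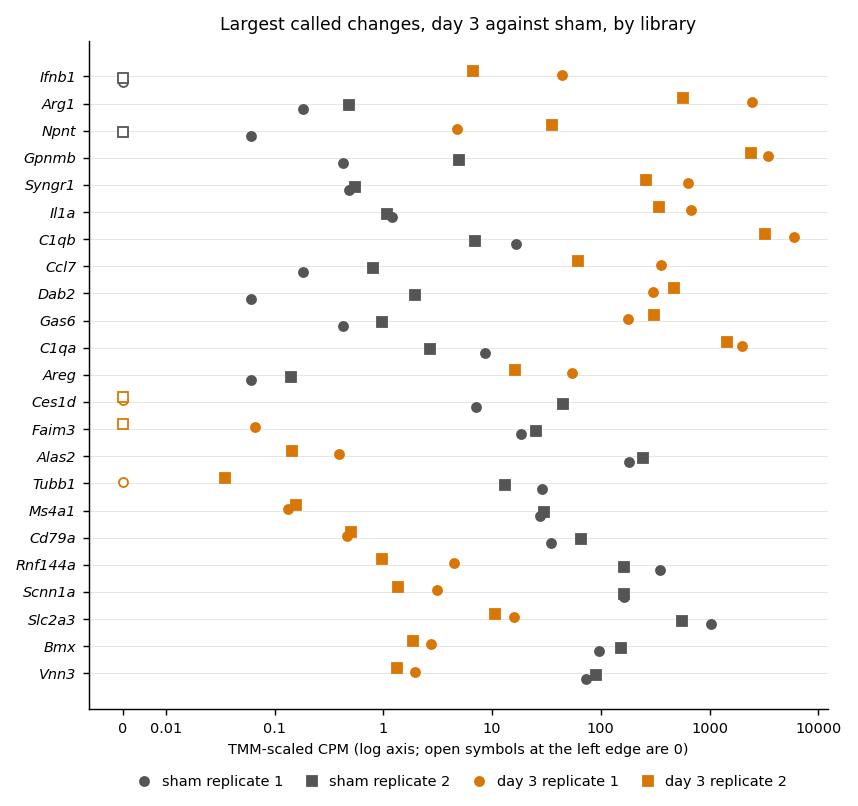
TMM-scaled CPM (log axis) of the 12 genes with the largest called rise and 11 of the 12 with the largest called fall, in each of the 4 libraries, with open symbols for a value of 0. The genes were chosen for groups that do not overlap. Ifnb1 lies at 0 in sham and Arg1 at 2441 and 564 CPM at day 3. Vnn3 lies at 73.2 and 90.3 CPM in sham and 1.97 and 1.35 CPM at day 3.

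The gene lists below were chosen with earlier results of these data known, so their counts describe the change and do not support it, and many genes belong to more than one list. Each count of called genes is set against the share of all tested genes called, 5.2% higher and 3.07% lower. Each count of genes without overlap is set against 28.9% higher and 24.5% lower over all tested genes.

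**Figure D4:**
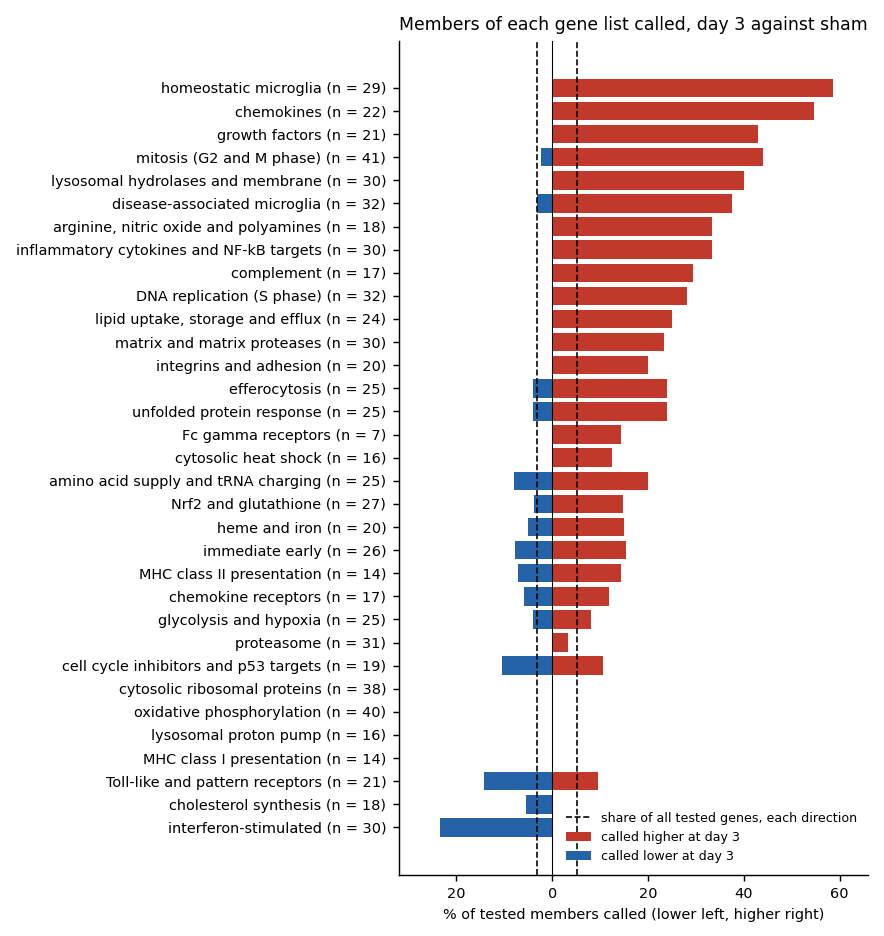
Percent of the tested members of each of 33 gene lists called higher (right) or lower (left) at day 3 against sham, with dashed lines at 5.2% and 3.07%, the shares of all tested genes. Homeostatic microglia genes reach 58.6% higher and interferon-stimulated genes 23.3% lower, while the ribosomal protein, oxidative phosphorylation, proton pump and MHC class I lists have none called.

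Genes of microglial identity were mostly higher at day 3 than in sham. Of 29 homeostatic genes 17 were called higher and 0 lower, with a median log2 fold change of 3.88. Fcrls, an Fc receptor-like scavenger gene enriched in microglia, had 10.4 and 4.03 CPM in sham and 925 and 1753 CPM at day 3. It rose by 6.48 and 8.76 log2 units in the 2 replicate numbers and in the fit (7.55 ± 1.1 SE, adjusted p = 0.00315). Olfml3, a secreted protein that microglia produce, rose from 6.06 and 1.21 CPM to 363 and 644 CPM (7.13 ± 1.16 SE, adjusted p = 0.00538). Sparc, a matrix-binding glycoprotein gene, had 10.5 and 17.8 CPM in sham and 208 and 1079 CPM at day 3 (5.51 ± 1.06 SE, adjusted p = 0.0109). Tmem119, with the values given above, rose by 4.1 and 6.76 log2 units (4.86 ± 1.08 SE, adjusted p = 0.0196) and Sall1 by 2.94 and 6.34 (5.24 ± 0.99 SE, adjusted p = 0.00964), so that replicate 2 showed the larger rise of both.

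Other identity genes did not pass. The purine receptor gene P2ry12 had 47.5 and 17.6 CPM in sham and 119.5 and 251 CPM at day 3, without overlap (2.51 ± 0.77 SE, adjusted p = 0.065). The fractalkine receptor gene Cx3cr1 had 392.2 and 149 CPM in sham and 193 and 333 CPM at day 3, so that its groups overlapped and its 2 replicate fold changes, -1.02 and 1.16, had opposite signs. Csf1r, the receptor for the growth factors that keep microglia alive, overlapped in the same way, with 1687 and 1235 CPM in sham and 682 and 4087 CPM at day 3 and log2 fold changes of -1.31 and 1.73. Fcrls and Olfml3 kept their calls with each of the 14 libraries left out in turn. Sparc, Tmem119 and Sall1 lost theirs in some of these fits, with adjusted p up to 0.103 for Sparc without sham replicate 1 and 0.101 for Tmem119 and 0.0895 for Sall1 without sham replicate 2.

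Some genes known from microglia around damaged or diseased tissue rose. Of 32 such genes 12 were called higher and 1 lower, 7 overlapped, and 3 lay lower without overlap, with a median log2 fold change of 2.11. Spp1, which encodes the secreted phosphoprotein osteopontin, had 10.1 and 71 CPM in sham and 12650 and 7212 CPM at day 3 and rose by 10.28 and 6.67 log2 units in the 2 replicate numbers (7.93 ± 1.29 SE, adjusted p = 0.00545). Gpnmb, a transmembrane glycoprotein of phagocytes with full lysosomes, had 0.424 and 4.92 CPM in sham and 3450 and 2400 CPM at day 3 (10.07 ± 1.75 SE, adjusted p = 0.00696). Both day 3 libraries of either gene lay far above both sham libraries. Trem2, the lipid-sensing receptor of microglia, went from 17.2 and 27.9 CPM to 1074 and 907 CPM (5.46 ± 1.18 SE, adjusted p = 0.018), and Igf1, insulin-like growth factor 1, from 0.242 and 0.665 CPM to 40.1 and 27.5 CPM (6.12 ± 1.22 SE, adjusted p = 0.0129). Ch25h, which makes 25-hydroxycholesterol, had 0.0606 and 0.0713 CPM in sham and 13.2 and 22 CPM at day 3 (7.98 ± 0.95 SE, adjusted p = 0.00117). Clec7a, the beta-glucan receptor dectin 1, moved the other way, from 1483 and 1275 CPM to 362 and 104 CPM (-2.57 ± 0.59 SE, adjusted p = 0.0231). Apoe, the main lipid carrier of the brain, had 1550 and 1836 CPM in sham and 33570 and 13800 CPM at day 3 without overlap and did not pass (3.81 ± 1.21 SE, adjusted p = 0.0726), and Lpl, lipoprotein lipase, overlapped at 104 and 126 CPM in sham and 86.5 and 121 CPM at day 3. Spp1 and Ch25h kept their calls with each of the 14 libraries left out in turn. Gpnmb, Trem2, Igf1 and Clec7a lost theirs in some of these fits, with adjusted p up to 0.053 for Gpnmb, 0.133 for Trem2 and 0.107 for Igf1 without sham replicate 1 and 0.116 for Clec7a without day 3 replicate 2.

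Some genes of secreted inflammatory signals rose and others overlapped between the groups. Of 30 cytokine and NF-kB target genes 10 were called higher and 0 lower, and of 22 chemokine genes 12 and 0, with median log2 fold changes of 1.42 and 4. Il1a, interleukin 1 alpha, had 1.21 and 1.07 CPM in sham and 671 and 343 CPM at day 3 and rose by 9.08 and 8.29 log2 units (8.8 ± 1.01 SE, adjusted p = 0.00114). Tnf, tumor necrosis factor, went from 33.9 and 21.9 CPM to 1728 and 927 CPM (5.57 ± 0.7 SE, adjusted p = 0.00154). Il1b, its partner in the early response, was already at 5593 and 7790 CPM in sham and at 11140 and 3936 CPM at day 3, with log2 fold changes of 0.99 and -0.98, so that its groups overlapped. Il23a, a subunit of interleukin 23, had 1.64 and 1.62 CPM in sham and 47.4 and 19.3 CPM at day 3 (4.36 ± 0.67 SE, adjusted p = 0.00425), and Il12b, the subunit it pairs with, had 2 counts in sham and 852 at day 3 (adjusted p = 0.00176). Il10, the anti-inflammatory cytokine, had 1.15 and 0.273 CPM in sham and 59.5 and 26.4 CPM at day 3 (6.01 ± 1.65 SE, adjusted p = 0.0496). Nos2, inducible nitric oxide synthase, had 0.121 and 0.119 CPM in sham and 4.67 and 4.4 CPM at day 3 (5.23 ± 1.48 SE, adjusted p = 0.0497). Il1a, Tnf, Il23a and Il12b kept their calls with each of the 14 libraries left out in turn. Il10 and Nos2 lost theirs in some of these fits, with adjusted p up to 0.202 for Il10 without sham replicate 2 and 0.227 for Nos2 without sham replicate 1. Il10 and Nos2 passed in 2 and 2 of the 14, respectively.

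Among chemokines, monocyte attractants were raised. Ccl7 had 0.182 and 0.808 CPM in sham and 356 and 62.2 CPM at day 3 and rose by 10.75 and 6.22 log2 units in the 2 replicate numbers (8.6 ± 1.01 SE, adjusted p = 0.00114). Ccl12 went from 0.121 and 0.321 CPM to 61.5 and 43.3 CPM (7.72 ± 1.25 SE, adjusted p = 0.00513). Ccl8 had no count in sham and 6.58 and 1.87 CPM at day 3, at least 142-fold higher against 3 counts over both sham libraries (adjusted p = 0.022). Ccl22, a ligand of Ccr4, had 1 count in sham and 1102 at day 3 (adjusted p = 0.0113). Pf4, platelet factor 4, which macrophages also make, had 7.88 and 16 CPM in sham and 1046 and 118 CPM at day 3 (5.61 ± 1.07 SE, adjusted p = 0.0104). Its day 3 values differed widely between the 2 libraries, and other platelet genes fell, as given below. Cxcl16, a membrane-bound scavenger chemokine, was at 3.58 and 4.93 CPM in sham and 628 and 539 CPM at day 3 (7.09 ± 0.64 SE, adjusted p = 0.000339). It was chosen after its values were seen. Ccl7 and Cxcl16 kept their calls with each of the 14 libraries left out in turn. Ccl12, Ccl8, Ccl22 and Pf4 lost theirs in some of these fits, with adjusted p up to 0.0604 for Ccl12 and 0.0966 for Pf4 without sham replicate 1 and 0.133 for Ccl8 and 0.105 for Ccl22 without sham replicate 2.

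Several growth factor genes rose, 9 of 21 called higher and 0 lower, with 19 of 21 above sham without overlap. Areg, amphiregulin, a ligand of the epidermal growth factor receptor, had 0.0606 and 0.143 CPM in sham and 54.9 and 16.2 CPM at day 3 and rose by 9.33 and 6.6 log2 units (8.24 ± 1.04 SE, adjusted p = 0.00162). Gdf15, a stress-induced factor of the transforming growth factor family, went from 1.33 and 0.558 CPM to 265 and 92.7 CPM (7.61 ± 1.11 SE, adjusted p = 0.00316). Csf3, granulocyte colony-stimulating factor, had 8 counts in sham and 1605 at day 3 (7.73 ± 2.04 SE, adjusted p = 0.0384), while Csf3r, its receptor on neutrophils, fell from 3806 and 2518 CPM to 205 and 321 CPM (-3.59 ± 0.84 SE, adjusted p = 0.0243). Areg and Gdf15 kept their calls with each of the 14 libraries left out in turn. Csf3 and Csf3r lost theirs in some of these fits, with adjusted p up to 0.206 for Csf3 without sham replicate 1 and 0.129 for Csf3r without day 3 replicate 1. Csf3 passed in 4 of the 14.

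Some interferon-stimulated genes fell and none was called higher, while interferon beta itself was higher. Of 30 such genes 0 were called higher and 7 lower, and 20 lay lower and 1 higher without overlap. The median log2 fold change was -1.25, with -1.47 and -1.26 in the 2 replicate numbers. Cmpk2, a mitochondrial nucleotide kinase induced by interferon, had 159 and 103 CPM in sham and 7.3 and 12.2 CPM at day 3 and fell by 4.44 and 3.09 log2 units (-3.75 ± 0.63 SE, adjusted p = 0.00615). Oasl2, an antiviral oligoadenylate synthase-like gene, went from 406 and 319 CPM to 66.4 and 66.5 CPM (-2.45 ± 0.52 SE, adjusted p = 0.0165), and Gbp2, a guanylate-binding protein gene, from 133 and 197 CPM to 13.9 and 29 CPM (-2.94 ± 0.76 SE, adjusted p = 0.0345). In these 3 genes both day 3 libraries lay well under both sham libraries. Sensors of microbes divided: of 21 Toll-like and other pattern receptor genes 2 were called higher and 3 lower. Cd14, the lipopolysaccharide co-receptor, had 1189 and 1090 CPM in sham and 8935 and 2243 CPM at day 3 (2.29 ± 0.63 SE, adjusted p = 0.0449), and Tlr3, the receptor for double-stranded RNA, had 1.58 and 1.27 CPM in sham and 3.62 and 12.4 CPM at day 3 (2.5 ± 0.61 SE, adjusted p = 0.0274). Myd88, the adaptor most Toll-like receptors use, fell from 489.5 and 458 CPM to 141 and 103 CPM (-1.95 ± 0.5 SE, adjusted p = 0.0344), and Nod1, a cytosolic peptidoglycan sensor, from 132 and 70.6 CPM to 12.2 and 20.7 CPM (-2.62 ± 0.49 SE, adjusted p = 0.00924). Cmpk2 kept its call with each of the 14 libraries left out in turn. Oasl2, Gbp2, Cd14, Tlr3, Myd88 and Nod1 lost theirs in some of these fits, with adjusted p up to 0.0996 for Oasl2, 0.212 for Tlr3 and 0.175 for Myd88 without day 3 replicate 2, 0.168 for Gbp2 and 0.322 for Cd14 without day 3 replicate 1 and 0.0847 for Nod1 without sham replicate 1. Gbp2, Cd14 and Myd88 passed in 8, 5 and 4 of the 14, respectively.

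The genes of C1q rose, and C3 did not pass the test. Of 17 complement genes 5 were called higher and 0 lower. C1qb had 16.4 and 6.95 CPM in sham and 6020 and 3214 CPM at day 3 and rose by 8.52 and 8.85 log2 units (8.63 ± 1.35 SE, adjusted p = 0.00454), and C1qc went from 17.3 and 4.59 CPM to 3593 and 2411 CPM (8.1 ± 1.35 SE, adjusted p = 0.006). C1qa rose by 7.84 and 9.08 log2 units from the sham values given above (8.26 ± 1.31 SE, adjusted p = 0.00478). These chains join in 1 protein, and both replicate numbers rose in each. C3ar1, the receptor for the C3a fragment, went from 6 and 2.19 CPM to 589.6 and 318 CPM (6.8 ± 1.05 SE, adjusted p = 0.00434). C3, the central component, lay lower without overlap at 400.3 and 288 CPM in sham and 45.8 and 76.6 CPM at day 3 and did not pass (-2.49 ± 0.82 SE, adjusted p = 0.0805). Among 7 Fc gamma receptor genes 1 was called, Fcgr1, the high-affinity receptor, at 40.4 and 65.2 CPM in sham and 420.4 and 231 CPM at day 3 (2.62 ± 0.5 SE, adjusted p = 0.0104). C1qa, C1qb, C1qc, C3ar1 and Fcgr1 lost their calls with some single libraries left out, with adjusted p up to 0.055 for C1qa, 0.0576 for C1qb, 0.0635 for C1qc and 0.0509 for C3ar1 without sham replicate 2 and 0.0924 for Fcgr1 without sham replicate 1.

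Some genes for recognising and taking up dying cells rose. Of 25 efferocytosis genes 6 were called higher and 1 lower. Gas6, the bridge between dead cells and the TAM receptors, had 0.424 and 0.963 CPM in sham and 179 and 306 CPM at day 3 and rose by 8.64 and 8.28 log2 units (8.4 ± 1.17 SE, adjusted p = 0.00254). Mertk, the TAM receptor of macrophages, had 1.82 and 0.903 CPM in sham and 57 and 149 CPM at day 3 (6.27 ± 0.85 SE, adjusted p = 0.00228), and Stab1, a scavenger receptor that binds phosphatidylserine, had 7.15 and 6.28 CPM in sham and 315 and 811 CPM at day 3 (6.39 ± 0.74 SE, adjusted p = 0.00114). In these genes both day 3 libraries lay far above the higher sham library. The integrin subunit gene Itgb5 went from 89.5 and 89.3 CPM to 714 and 1837 CPM (3.83 ± 0.65 SE, adjusted p = 0.00615). Cd300lb, an activating lipid receptor of myeloid cells, fell from 587 and 325 CPM to 44.8 and 21.8 CPM (-3.78 ± 0.82 SE, adjusted p = 0.0186). Gas6, Mertk and Stab1 kept their calls with each of the 14 libraries left out in turn. Itgb5 and Cd300lb lost theirs in some of these fits, with adjusted p up to 0.0645 for Itgb5 without sham replicate 2 and 0.133 for Cd300lb without day 3 replicate 2.

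Many lysosomal genes rose, and no subunit gene of the pump that acidifies the lysosome passed the test. Of 30 lysosomal hydrolase and membrane genes 12 were called higher and 0 lower, and 25 lay higher without overlap, with a median log2 fold change of 1.78. Their summed level went from 16140 and 14670 CPM in sham to 69200 and 110800 CPM at day 3. The protease gene Ctsd reached 22060 and 34470 CPM from 1906 and 2038 CPM (3.84 ± 0.91 SE, adjusted p = 0.0253), and Ctsb, a second cathepsin, 25260 and 28650 CPM from 1888 and 2250 CPM (3.7 ± 0.81 SE, adjusted p = 0.0186), so that these 2 genes made up most of the list's sum at day 3. Ctsl went from 51.2 and 84.5 CPM to 1628 and 1837 CPM (4.67 ± 0.85 SE, adjusted p = 0.00838) and Ctsk, best known from bone-resorbing osteoclasts, from 0.788 and 0.903 CPM to 25.8 and 30.8 CPM (5.05 ± 1.35 SE, adjusted p = 0.0449). In the GRCm38 annotation exons of Ctsl overlap an antisense gene and those of Ctsb overlap Fdft1, and without a stated strand setting their reads cannot be told apart. Ctsd shares 808 exon bases on its own strand, and 36.5% of its sampled sequence words, with a further gene model. Many other genes named here overlap a gene model over some exon bases. Examples on the opposite strand are Csf1r, Folr2, Slc7a2, Cxcl16, Eif2ak3, Tlr3, Alas2, Gclm, Myd88, Lig1 and Il1a, and the limit of the strand setting holds for them. Spp1 and Gclm share exon bases with a gene model on their own strand, as Ctsd does. Of 16 proton pump subunit genes 0 were called by edgeR in either direction, with median log2 fold changes of 1.31 and 0.02 in the 2 replicate numbers. Ctsd, Ctsb, Ctsl and Ctsk lost their calls with some single libraries left out, with adjusted p up to 0.157 for Ctsd, 0.13 for Ctsb, 0.0834 for Ctsl and 0.222 for Ctsk without sham replicate 1. Ctsk passed in 6 of the 14.

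Genes that handle lipid were raised in part, with 6 of 24 genes called higher and 0 lower. Plin2, the coat protein of lipid droplets, had 156 and 204 CPM in sham and 4003 and 2116 CPM at day 3 and rose by 4.68 and 3.37 log2 units (4.09 ± 0.55 SE, adjusted p = 0.00216). Abca1, the pump that exports cholesterol, went from 11.5 and 4.12 CPM to 212 and 269 CPM (4.95 ± 0.64 SE, adjusted p = 0.00176), and Nr1h3, the oxysterol receptor that turns Abca1 on, from 4.43 and 7.09 CPM to 70.6 and 43.9 CPM (3.31 ± 0.67 SE, adjusted p = 0.014). The list summed to 3965 and 3665 CPM in sham and 40640 and 24540 CPM at day 3, where most of it was Apoe. Of 18 cholesterol synthesis genes 0 were called higher and 1 lower, Sc5d, a late enzyme of the pathway, at 104 and 96 CPM in sham and 29.9 and 10.1 CPM at day 3 (-2.33 ± 0.57 SE, adjusted p = 0.0275). Plin2 and Abca1 kept their calls with each of the 14 libraries left out in turn. Nr1h3 and Sc5d lost theirs in some of these fits, with adjusted p up to 0.117 for Nr1h3 without sham replicate 1 and 0.148 for Sc5d without day 3 replicate 2.

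Some genes that take up or use arginine rose. Arg1, arginase 1, which splits arginine into ornithine and urea, had 0.182 and 0.487 CPM in sham and 2441 and 564 CPM at day 3 and rose by 13.53 and 10.11 log2 units (12.03 ± 1.54 SE, adjusted p = 0.00172). Both day 3 libraries stood far above both sham libraries, and replicate 1 was the higher of them. Srm, spermidine synthase, which lies downstream of ornithine, went from 8.19 and 13.2 CPM to 84.3 and 65.7 CPM (2.81 ± 0.44 SE, adjusted p = 0.00455), and Odc1, ornithine decarboxylase, the step between, from 11.4 and 14.3 CPM to 78 and 89.8 CPM (2.7 ± 0.69 SE, adjusted p = 0.0342). Slc7a2, a cationic amino acid transporter, went from 0.182 and 0.19 CPM to 2.24 and 2.91 CPM (3.78 ± 0.84 SE, adjusted p = 0.02). Mrc1, the mannose receptor often measured with Arg1, had 9.28 and 7.21 CPM in sham and 49.3 and 59.5 CPM at day 3 (2.72 ± 0.41 SE, adjusted p = 0.00388). With Nos2, 6 of the 18 genes of the list were called higher and 0 lower. Odc1 was chosen after its values were seen, as the enzyme between Arg1 and Srm, and 42.2% of its sampled sequence words also occur in other gene models. Arg1, Srm and Mrc1 kept their calls with each of the 14 libraries left out in turn. Odc1 and Slc7a2 lost theirs in some of these fits, with adjusted p up to 0.192 for Odc1 and 0.119 for Slc7a2 without sham replicate 1. Odc1 passed in 7 of the 14.

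Few iron and heme genes passed, in both directions. Of 20 genes 3 were called higher and 1 lower. Slc40a1, ferroportin, the one known exporter of iron, fell from 1098 and 968 CPM to 40.4 and 43.4 CPM, by 4.76 and 4.48 log2 units in the 2 replicate numbers (-4.62 ± 0.69 SE, adjusted p = 0.00363). Hmox1, heme oxygenase 1, which frees iron from heme, had 57.1 and 88.2 CPM in sham and 2080 and 279 CPM at day 3 and rose by 5.19 and 1.66 log2 units (4.02 ± 0.79 SE, adjusted p = 0.012). The day 3 libraries differed widely in Hmox1, with replicate 1 the higher, and both lay above sham. Tfrc, the transferrin receptor, went from 4.73 and 3.61 CPM to 13 and 12.8 CPM (1.63 ± 0.46 SE, adjusted p = 0.0497), and Spic, a transcription factor of iron-recycling macrophages, from 0.97 and 0.642 CPM to 12.8 and 4.52 CPM (3.43 ± 0.8 SE, adjusted p = 0.0235). Of 27 Nrf2 and glutathione genes 4 were called higher and 1 lower. Srxn1, sulfiredoxin, had 9.09 and 4.94 CPM in sham and 186 and 41.1 CPM at day 3 (4.02 ± 0.91 SE, adjusted p = 0.022), Gclm, a subunit of the first enzyme of glutathione synthesis, had 38.4 and 43.6 CPM in sham and 399 and 93.6 CPM at day 3 (2.59 ± 0.64 SE, adjusted p = 0.0304), and Gsr, glutathione reductase, fell from 3016 and 3575 CPM to 579.7 and 393 CPM (-2.76 ± 0.77 SE, adjusted p = 0.0473). Slc40a1 kept its call with each of the 14 libraries left out in turn. Hmox1, Tfrc, Spic, Srxn1, Gclm and Gsr lost the call in some of these fits, with adjusted p up to 0.107 for Hmox1 without sham replicate 1, 0.198 for Tfrc, 0.136 for Spic and 0.132 for Srxn1 without sham replicate 2, 0.234 for Gclm without day 3 replicate 1 and 0.217 for Gsr without day 3 replicate 2. Tfrc, Gclm and Gsr passed in 4, 9 and 4 of the 14, respectively.

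Several chaperone genes of the endoplasmic reticulum rose. Of 25 unfolded protein response genes 6 were called higher, Calr, Creld2, Manf, Pdia4, Pdia6 and Sdf2l1, and 1 lower. All 6 encode proteins that work inside the endoplasmic reticulum. Pdia4, a disulfide isomerase, had 63.5 and 76.8 CPM in sham and 256 and 370.5 CPM at day 3 (2.16 ± 0.39 SE, adjusted p = 0.00808) and Sdf2l1, a chaperone partner, had 52.1 and 80.2 CPM in sham and 649 and 266 CPM at day 3 (2.79 ± 0.64 SE, adjusted p = 0.0233). Manf, a secreted survival factor, went from 31.2 and 58.2 CPM to 458 and 129 CPM (2.72 ± 0.66 SE, adjusted p = 0.0276). Eif2ak3, the sensor kinase PERK, was the one that fell, from 102 and 62.3 CPM to 11.6 and 28.6 CPM (-2.02 ± 0.55 SE, adjusted p = 0.0449). Pdia4, Sdf2l1, Manf and Eif2ak3 lost their calls with some single libraries left out, with adjusted p up to 0.0816 for Pdia4, 0.159 for Sdf2l1, 0.185 for Manf and 0.249 for Eif2ak3 without sham replicate 1. Eif2ak3 passed in 4 of the 14.

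The endoplasmic reticulum stress element (ERSE) is a sequence at which ATF6 with NF-Y acts in this response. Promoters from RefSeq (GRCm38.p6, 250 bases before to 50 after the start) were found for 22 of the 25 genes and searched on both strands for the full element, CCAAT and CCACG with 9 bases of any kind between them, so that each match also holds a CCAAT box. It stood in 7 of the 22 (31.8%), 3 of the 5 called higher that had a promoter and 4 of the 16 not called, against 0.137% of all 27025 genes with a promoter. The 4 not called that hold it, named for the element alone, are Hspa5, Hsp90b1, Dnajc3 and Canx. The 3 promoters shown are those of the genes called higher that hold it, so their common direction was fixed by the choice. Each is given up to the base before the start on the gene's strand, with the motif, or its complement, in capitals. The windows are chr8:84846932-84847101 (minus strand) for Calr, chr15:88819516-88819645 (plus strand) for Creld2 and chr12:17266469-17266588 (plus strand) for Pdia6.
Calr: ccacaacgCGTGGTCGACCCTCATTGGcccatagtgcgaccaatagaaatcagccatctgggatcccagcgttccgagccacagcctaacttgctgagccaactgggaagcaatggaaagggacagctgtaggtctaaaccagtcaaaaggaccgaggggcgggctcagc
Creld2: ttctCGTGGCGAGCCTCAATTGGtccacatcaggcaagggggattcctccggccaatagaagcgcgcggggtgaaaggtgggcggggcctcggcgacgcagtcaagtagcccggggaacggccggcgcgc
Pdia6: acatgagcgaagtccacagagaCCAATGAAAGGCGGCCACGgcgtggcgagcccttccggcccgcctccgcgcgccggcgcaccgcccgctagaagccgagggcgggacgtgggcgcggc
The motif ends 144, 108 and 80 bases before the start in Calr, Creld2 and Pdia6. Calr, calreticulin, a calcium-binding chaperone, had 293 and 391.5 CPM in sham and 1223 and 1409 CPM at day 3 (1.94 ± 0.47 SE, adjusted p = 0.0259). Creld2 had 30.1 and 70.8 CPM in sham and 206 and 183 CPM at day 3 (1.95 ± 0.49 SE, adjusted p = 0.0307), and Pdia6, a disulfide isomerase, had 196 and 402 CPM in sham and 964 and 1147 CPM at day 3 (1.82 ± 0.48 SE, adjusted p = 0.039). A match in the 300 bases searched describes the sequence and shows no binding. Calr, Creld2 and Pdia6 lost their calls with some single libraries left out, with adjusted p up to 0.171 for Calr, 0.193 for Creld2 and 0.235 for Pdia6 without sham replicate 1. Pdia6 passed in 4 of the 14.

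Some genes of amino acid supply rose, among them genes of serine synthesis. Of 25 amino acid supply and tRNA charging genes 5 were called higher and 2 lower. Psat1, of the serine pathway, had 5.21 and 8.6 CPM in sham and 59.1 and 100.3 CPM at day 3 (3.52 ± 0.77 SE, adjusted p = 0.0185), and Phgdh, its first enzyme, went from 0.849 and 0.986 CPM to 10.2 and 42.7 CPM (4.84 ± 0.84 SE, adjusted p = 0.00696), although 62.8% of its sampled sequence words also occur in other gene models. Shmt2, which takes serine into the one-carbon cycle of mitochondria, had 8.79 and 8.58 CPM in sham and 35.6 and 58.4 CPM at day 3 (2.44 ± 0.41 SE, adjusted p = 0.00609), and Slc3a2, the heavy chain of amino acid transporters, had 110 and 181 CPM in sham and 851 and 893 CPM at day 3 (2.58 ± 0.54 SE, adjusted p = 0.0157). Chac1, which degrades glutathione, fell from 31.6 and 21 CPM to 3.35 and 0.615 CPM (-3.77 ± 1.00 SE, adjusted p = 0.0394), and Sesn2, a stress-induced leucine sensor, from 134 and 85.7 CPM to 27.6 and 23.9 CPM (-2.09 ± 0.58 SE, adjusted p = 0.0481). Psat1, Phgdh, Shmt2, Slc3a2, Chac1 and Sesn2 lost their calls with some single libraries left out, with adjusted p up to 0.134 for Psat1, 0.0727 for Phgdh, 0.125 for Slc3a2 and 0.236 for Sesn2 without sham replicate 1, 0.0584 for Shmt2 without sham replicate 2 and 0.183 for Chac1 without day 3 replicate 2. Chac1 and Sesn2 passed in 5 and 4 of the 14, respectively.

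Many genes of cell division rose, and the median rise of the mitotic genes was larger in replicate 2. Of 41 genes of G2 phase and mitosis 18 were called higher and 1 lower, with a median log2 fold change of 3.85 and of 2.6 and 4.4 in the 2 replicate numbers. Of 32 DNA replication genes 9 were called higher and 0 lower, with 26 above sham without overlap. Plk1, the polo-like kinase of mitosis, had 0.0606 and 0.119 CPM in sham and 4.34 and 21.1 CPM at day 3 and rose by 5.67 and 7.2 log2 units (6.98 ± 1.32 SE, adjusted p = 0.00989). Kif2c, a microtubule-dismantling kinesin, went from 0.182 and 0.143 CPM to 3.75 and 26.7 CPM (6.59 ± 1.1 SE, adjusted p = 0.006), and Ccnb1, cyclin B1, from 0.121 and 0.0713 CPM to 3.16 and 8.14 CPM (5.97 ± 1.22 SE, adjusted p = 0.014). All 3 were low in sham and higher in replicate 2 than in replicate 1 at day 3. For Ccnb1, 42% of the sampled sequence words also occur in other gene models. Of the replication genes Lig1, DNA ligase 1, had 0.909 and 1.68 CPM in sham and 17.6 and 38.7 CPM at day 3 (4.42 ± 0.75 SE, adjusted p = 0.00615), Tyms, thymidylate synthase, had 0.242 and 1.69 CPM in sham and 14.9 and 18.5 CPM at day 3 (4.04 ± 0.83 SE, adjusted p = 0.0149), and Gins1, part of the replicative helicase, had 0.606 and 0.202 CPM in sham and 8.62 and 9.43 CPM at day 3 (4.57 ± 0.86 SE, adjusted p = 0.00964). Mki67, the proliferation marker, overlapped at 10.8 and 4.72 CPM in sham and 10.3 and 23.3 CPM at day 3 and did not pass (1.13 ± 0.64 SE, adjusted p = 0.29). Kif23, a kinesin of the dividing bridge, went against the group, from 128 and 143 CPM to 2.3 and 16.1 CPM (-3.87 ± 1.02 SE, adjusted p = 0.0377). The summed mitotic level, Kif23 included, overlapped between the groups, at 322 and 395 CPM in sham and 264 and 936 CPM at day 3. Plk1, Kif2c, Ccnb1, Lig1, Tyms, Gins1 and Kif23 lost their calls with some single libraries left out, with adjusted p up to 0.0885 for Plk1, 0.0684 for Lig1 and 0.0745 for Tyms without sham replicate 1, 0.0685 for Kif2c, 0.108 for Ccnb1 and 0.0828 for Gins1 without sham replicate 2 and 0.143 for Kif23 without day 3 replicate 1. Kif23 passed in 5 of the 14.

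The cell cycle genes homology region (CHR) and the CCAAT box are the 2 promoter elements through which the DREAM complex and NF-Y act on G2 and mitotic genes. RefSeq promoters of the same kind were found for 37 of the 41 genes and searched on both strands for TTTGAA and CCAAT. The CHR letters stood in 28 of the 37 (75.7%) and in 20.2% of all 27025 genes with a promoter, and CCAAT in 29 (78.4%) and in 41.1%. Among the 17 called higher with a promoter 12 (70.6%) held the CHR letters, and among the 19 not called 15 (78.9%). For CCAAT these were 15 (88.2%) and 13 (68.4%). Kif23, the 1 gene called lower, held both. The 3 promoters shown each hold both elements close to the start, with TTTGAA and CCAAT or their complements in capitals, up to the base before the start on the gene's strand. The windows are chr10:69352913-69353032 for Cdk1, chr4:118437344-118437463 for Cdc20 and chr11:99024190-99024309 for Top2a, all on the minus strand.
Cdk1: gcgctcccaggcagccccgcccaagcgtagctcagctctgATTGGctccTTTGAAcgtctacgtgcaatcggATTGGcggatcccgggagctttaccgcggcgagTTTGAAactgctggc
Cdc20: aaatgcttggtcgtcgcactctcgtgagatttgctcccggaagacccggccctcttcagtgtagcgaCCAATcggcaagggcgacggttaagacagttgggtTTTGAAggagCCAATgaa
Top2a: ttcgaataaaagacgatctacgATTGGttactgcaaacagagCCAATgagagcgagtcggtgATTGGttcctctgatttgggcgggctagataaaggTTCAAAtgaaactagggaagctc
The CHR letters nearest the start end 10, 13 and 18 bases before it in Cdk1, Cdc20 and Top2a. Cdk1, the kinase that drives entry into mitosis, had 0.242 and 0.618 CPM in sham and 15.2 and 30.8 CPM at day 3 (5.65 ± 0.95 SE, adjusted p = 0.00615). Cdc20, an activator of the anaphase-promoting complex, had 0.97 and 1.31 CPM in sham and 6.05 and 28 CPM at day 3 (3.89 ± 1.1 SE, adjusted p = 0.0497), and Top2a, which untangles chromosomes, had 1.58 and 1.44 CPM in sham and 9.67 and 49.1 CPM at day 3 (4.29 ± 0.99 SE, adjusted p = 0.0234). Cdk1, Cdc20, Calr and Pdia6 were chosen for their promoters after their values were seen. Cdk1, Cdc20 and Top2a lost their calls with some single libraries left out, with adjusted p up to 0.0641 for Cdk1 without sham replicate 1 and 0.262 for Cdc20 and 0.15 for Top2a without day 3 replicate 2. Cdc20 passed in 5 of the 14.

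Inhibitors of the cycle and targets of p53 moved both ways, with 2 of 19 called higher and 2 lower. Cdkn1b, the inhibitor p27, fell from 63.7 and 68 CPM to 15.8 and 4.16 CPM (-2.73 ± 0.74 SE, adjusted p = 0.0411), and Trp53inp1, a p53-induced nuclear protein, from 147 and 47.9 CPM to 5.53 and 6.25 CPM (-4.05 ± 0.87 SE, adjusted p = 0.0178). Gadd45g, a growth arrest gene, rose from 30.2 and 33.4 CPM to 184 and 69.5 CPM (1.99 ± 0.49 SE, adjusted p = 0.0282). Immediate early genes were also divided, 4 of 26 higher and 2 lower: Ier3 had 113 and 66.9 CPM in sham and 1748 and 404 CPM at day 3 (3.58 ± 0.7 SE, adjusted p = 0.0118) and Myc had 9.15 and 9.27 CPM in sham and 31.1 and 51.8 CPM at day 3 (2.17 ± 0.46 SE, adjusted p = 0.016), while Klf2, a factor of quiescence in endothelial cells and leukocytes, fell from 1357 and 833 CPM to 109.9 and 77.3 CPM (-3.55 ± 0.74 SE, adjusted p = 0.0157). Cdkn1b, Trp53inp1, Gadd45g, Ier3, Myc and Klf2 lost the call with some single libraries left out, with adjusted p up to 0.196 for Cdkn1b and 0.117 for Klf2 without day 3 replicate 2, 0.12 for Trp53inp1 and 0.108 for Myc without sham replicate 1, 0.18 for Gadd45g without day 3 replicate 1 and 0.0964 for Ier3 without sham replicate 2. Cdkn1b passed in 5 of the 14.

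Some matrix proteases and adhesion receptors rose. Of 30 matrix genes 7 were called higher and 0 lower. Mmp14, a membrane-bound matrix metalloprotease that activates others, had 0.667 and 2.95 CPM in sham and 324 and 375 CPM at day 3 and rose by 8.87 and 6.98 log2 units (7.56 ± 0.71 SE, adjusted p = 0.000339). Mmp12, macrophage elastase, went from 0.182 and 0.464 CPM to 31.2 and 24.4 CPM (6.32 ± 0.84 SE, adjusted p = 0.00201), and Sdc4, the heparan sulfate proteoglycan syndecan 4, from 1.33 and 1.13 CPM to 139 and 38.9 CPM (6.18 ± 0.8 SE, adjusted p = 0.00176). Of 20 integrin and adhesion genes 4 were called higher and 0 lower, while 7 lay higher and 8 lower without overlap. The median log2 fold change of this list was -0.18, with -1.28 and 0.47 in the 2 replicate numbers. Itga9, a subunit that binds osteopontin and tenascin, had 0.364 and 0.19 CPM in sham and 23.7 and 37.8 CPM at day 3 and rose by 5.93 and 7.46 log2 units (6.9 ± 0.65 SE, adjusted p = 0.000339). Itga6, a laminin receptor subunit, had 14.1 and 8.58 CPM in sham and 126 and 315 CPM at day 3 (4.29 ± 0.7 SE, adjusted p = 0.00566), and Vcam1, the ligand of the alpha 4 integrins, had 0.121 and 0.808 CPM in sham and 9.47 and 11.7 CPM at day 3 (4.36 ± 0.7 SE, adjusted p = 0.00488). Among 17 chemokine receptor genes 2 were called higher and 1 lower, while 4 lay higher and 10 lower without overlap. Their median log2 fold change was -1.01, with -0.83 and -1.18 in the 2 replicate numbers. Ccrl2, a non-signalling receptor, was at 593 and 407 CPM in sham and 3231 and 1217 CPM at day 3 (2.15 ± 0.58 SE, adjusted p = 0.0413), and Ccr3, the eosinophil and basophil receptor, which fell, was at 54.1 and 33.9 CPM in sham and 3.16 and 0.563 CPM at day 3 (-4.61 ± 1.23 SE, adjusted p = 0.0392). Ccr2, the receptor of inflammatory monocytes, lay lower without overlap at 959.6 and 565 CPM in sham and 368 and 165 CPM at day 3 and did not pass (-1.52 ± 1.12 SE, adjusted p = 0.419). Mmp14, Mmp12, Sdc4, Itga9 and Vcam1 kept their calls with each of the 14 libraries left out in turn. Itga6, Ccrl2 and Ccr3 lost theirs in some of these fits, with adjusted p up to 0.0642 for Itga6 without sham replicate 2, 0.227 for Ccrl2 without day 3 replicate 1 and 0.193 for Ccr3 without day 3 replicate 2. Ccrl2 and Ccr3 passed in 5 and 6 of the 14, respectively.

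Some markers of macrophages at the borders of the brain rose, and some B cell markers fell. Of 14 border-associated macrophage genes 8 were called higher and 0 lower, with 11 above sham without overlap and a median log2 fold change of 3.58 with genes at 0 placed at their bound. Stab1, Gas6 and Mrc1 belong to it and are given above, and microglia also transcribe several of its genes. Ms4a7, a four-span membrane protein gene, had 3.03 and 9.74 CPM in sham and 886 and 359 CPM at day 3 (6.6 ± 1.14 SE, adjusted p = 0.00675), and Folr2, folate receptor beta, had 0 and 0.487 CPM in sham and 41.4 and 16.2 CPM at day 3 (6.59 ± 1.55 SE, adjusted p = 0.0275). Of 13 B cell markers 7 were called lower and 1 higher. Cd79a, of the B cell receptor, went from 35.2 and 65.2 CPM to 0.461 and 0.505 CPM (-6.68 ± 0.98 SE, adjusted p = 0.00331), and Fcer2a, the low-affinity IgE receptor, from 17.2 and 18.1 CPM to 0 and 0.139 CPM (-7.47 ± 1.19 SE, adjusted p = 0.00488). Blnk, an adaptor downstream of the B cell receptor, was the one that rose, from 5.03 and 9.86 CPM to 79.5 and 147 CPM (3.92 ± 0.95 SE, adjusted p = 0.0275). Faim3, an IgM receptor, had 2425 counts in sham and 1 at day 3 (adjusted p = 0.00162). Cd79a, Fcer2a and Faim3 kept their calls with each of the 14 libraries left out in turn. Ms4a7, Folr2 and Blnk lost theirs in some of these fits, with adjusted p up to 0.0661 for Ms4a7, 0.131 for Folr2 and 0.182 for Blnk without sham replicate 1.

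Several platelet genes fell, as did Alas2 of red cells, given above. Of 13 platelet and megakaryocyte genes 4 were called lower and 1, Pf4, higher. Gp5, a subunit of the von Willebrand factor receptor, had 9.88 and 4.41 CPM in sham and no count at day 3, at least 446.5-fold lower against 3 counts over both libraries (adjusted p = 0.0194). Tubb1 went from 28.6 and 13 CPM to 0 and 0.0348 CPM (-9.48 ± 2.4 SE, adjusted p = 0.0331), and Clec1b, the podoplanin receptor, from 7.7 and 12 CPM to 0.329 and 0.377 CPM (-4.78 ± 0.97 SE, adjusted p = 0.0137). Among 19 T and NK cell genes 2 were called lower and 1 higher: Gzma, granzyme A, went from 14.1 and 34.3 CPM to 1.32 and 0.615 CPM (-4.68 ± 0.94 SE, adjusted p = 0.0135), Cd3d, of the T cell receptor complex, from 2.42 and 5.36 CPM to 0.395 and 0.0697 CPM (-4.31 ± 1.12 SE, adjusted p = 0.0356), and Il7r, the interleukin 7 receptor, rose from 0.728 and 0.511 CPM to 41 and 19.7 CPM (5.64 ± 0.77 SE, adjusted p = 0.00228). S100a8, the abundant neutrophil protein gene, had 3397 and 12210 CPM in sham and 1301 and 32.5 CPM at day 3, lower without overlap, and did not pass (-3.55 ± 1.67 SE, adjusted p = 0.209). Il7r kept its call with each of the 14 libraries left out in turn. Gp5, Tubb1, Clec1b, Gzma and Cd3d lost theirs in some of these fits, with adjusted p up to 0.145 for Gp5, 0.17 for Tubb1, 0.0932 for Clec1b, 0.107 for Gzma and 0.187 for Cd3d without day 3 replicate 2. Tubb1 and Cd3d passed in 8 and 7 of the 14, respectively.

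Lists of antigen presentation and glucose use differed in their share of calls. Of 14 MHC class II presentation genes 2 were called higher and 1 lower (21.4%, against 8.28% of all genes). Without overlap 8 of them lay higher and 2 lower. Of 14 MHC class I genes 0 were called in either direction, and 0 lay higher and 6 lower without overlap. Cd74, the invariant chain, had 2058 and 4120 CPM in sham and 5400 and 6613 CPM at day 3, without overlap, and did not pass (0.96 ± 0.72 SE, adjusted p = 0.424). Cd86, the costimulatory ligand B7-2, rose from 36 and 36.7 CPM to 112 and 91.1 CPM (1.48 ± 0.39 SE, adjusted p = 0.0371) while Cd80, its relative B7-1, fell from 47.8 and 39.2 CPM to 14.6 and 6.04 CPM (-2.08 ± 0.57 SE, adjusted p = 0.0454). Of 25 glycolysis and hypoxia genes 2 were called higher and 1, Slc2a3, lower. Tpi1, triosephosphate isomerase, had 128 and 175 CPM in sham and 754 and 438 CPM at day 3 (1.98 ± 0.45 SE, adjusted p = 0.0226). Cd86, Cd80 and Tpi1 lost their calls with some single libraries left out, with adjusted p up to 0.184 for Cd86 and 0.151 for Tpi1 without sham replicate 1 and 0.219 for Cd80 without day 3 replicate 2. Cd86 and Cd80 passed in 4 and 5 of the 14, respectively.

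Direct tests between stroke times set no sham library against day 3. They use the same 2 day 3 libraries as the tests above, so the 2 sets of tests are not independent. Against day 1, edgeR called 0 of 13861 genes, with 348 at an unadjusted p under 0.05 (311 higher at day 3), and limma-voom called 0. DESeq2 called 5, all higher at day 3, Col12a1, Col6a2, Npnt, Scara3 and Smoc2, which were chosen after their values were seen. Against day 7, edgeR called 1 gene (0.00721%), Il23a, with 574 at an unadjusted p under 0.05. DESeq2 called 116 and limma-voom 8. Il23a had 47.4 and 19.3 CPM at day 3 and 0.291 and 0.257 CPM at day 7, a log2 fold change of 6.94 ± 0.77 (SE; adjusted p = 0.0145). Without day 3 replicate 1, day 7 replicate 1 or day 7 replicate 2, edgeR called 0 genes against day 7.

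Against the mean of the other 5 stroke times, 8 genes (0.0577%) were called, all higher at day 3, and all are given although they were chosen by their values. The direction depended on the tool: limma-voom called 9 genes, 4 higher and 5 lower, and DESeq2 called 135, 47 higher and 88 lower. Arg1, Ecm1 and Il23a were among the 4 that limma-voom called higher, and its 5 lower genes were Atp6v0d2, Lpl, Mfge8, Mmp12 and Slamf8. Arg1 had a log2 fold change of 7.49 ± 0.64 (SE; adjusted p = 0.000858), Ppbp, pro-platelet basic protein, 6.81 ± 0.8 (SE; adjusted p = 0.0091), Il23a 4.06 ± 0.37 (SE; adjusted p = 0.000996) and Pf4 3.89 ± 0.56 (SE; adjusted p = 0.0307). Areg had 3.74 ± 0.47 (SE; adjusted p = 0.0091), Ccl7 3.18 ± 0.47 (SE; adjusted p = 0.0307), Ccl2 3.08 ± 0.38 (SE; adjusted p = 0.0091) and Ecm1, extracellular matrix protein 1, 2.26 ± 0.26 (SE; adjusted p = 0.00652). In none of the 8 did the day 3 libraries lie above all 10 other stroke libraries, since day 1 libraries overlapped them. Over all genes 0.281% lay above and 0.404% below those 10 libraries. At day 1 Arg1 had 1332 and 3700 CPM, Ecm1 1122 and 1526 CPM and Il23a 17.3 and 39.1 CPM. At day 7 they had 4.12 and 3.7 CPM, 247 and 219.9 CPM and 0.291 and 0.257 CPM. Ppbp was at 26.7 and 27.2 CPM in sham and 114 and 9.32 CPM at day 3, so against sham it overlapped and did not pass (1.19 ± 1.18 SE, adjusted p = 0.569). The number of genes called ranged from 1 to 57 with 1 library left out, the fewest without day 3 replicate 1 and the most without day 21 replicate 1.

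**Figure D5:**
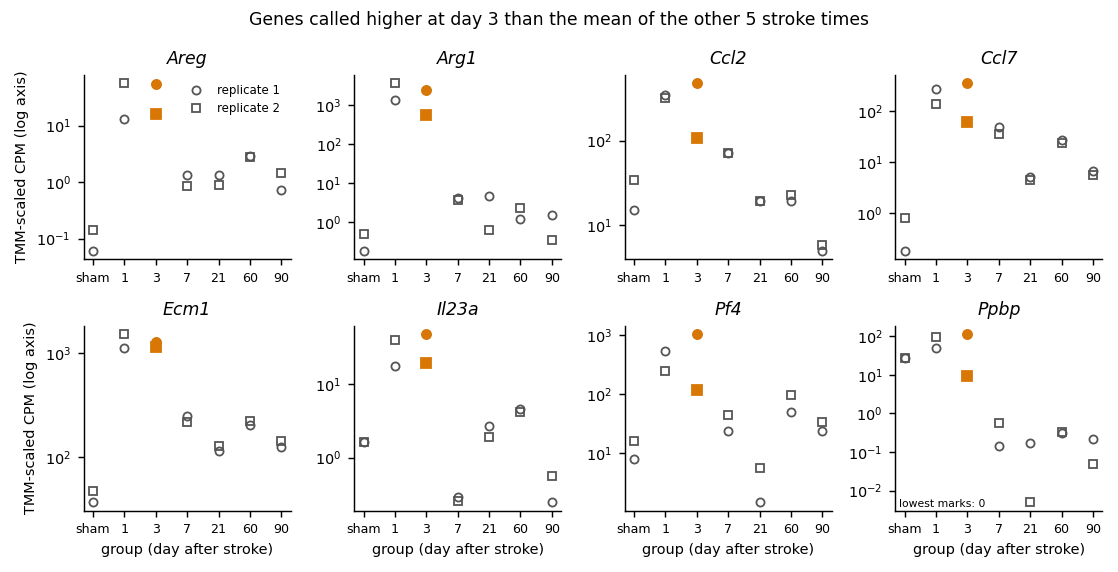
TMM-scaled CPM (log axis) of the 8 genes called higher at day 3 than the mean of the other 5 stroke times, in every library of sham and days 1, 3, 7, 21, 60 and 90, with circles for replicate 1, squares for replicate 2 and filled symbols for day 3. Il23a lies at 17.3 and 39.1 CPM on day 1, 47.4 and 19.3 CPM on day 3 and 0.291 and 0.257 CPM on day 7.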

How the data were processed

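RNA of sorted cortical microglia was sequenced in 14 libraries, 2 for each of 7 groups. The authors deposited raw read counts per gene for 14084 genes. Bowtie2 2.3.4.2, HTSeq 0.6.1 and the genome build mm9 are named in the submitters' processing notes, and nothing more on annotation, strand or reads with several matches was found in the labels or headers.

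From these counts, 13861 genes passed edgeR's filterByExpr by group and 223 did not. All 14 libraries entered 1 quasi-likelihood fit by group (edgeR 4.0.16, limma 3.58.1, R 4.3.3) with TMM factors, and p-values were adjusted by Benjamini-Hochberg over all tested genes, with calls at 0.05. The fit had 7 residual degrees of freedom and a common biological coefficient of variation of 0.639. Replicate fold changes were computed on log2 CPM with a prior count of 2. The standard error is the size of the log2 fold change divided by the square root of F. A gene at 0 in a group was given a fold against 3 counts over that group, which covers counting error only. The code was tested on simulated data.

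Genes were named by 1 rule: the 12 largest called changes in each direction with a group mean of at least 20 CPM, for each list the 4 largest called changes up and the 4 largest down, a panel of 24 genes and the 6 largest called changes in each direction against other stroke times. The members and lists were chosen with earlier results of these data known. Genes named outside the rule are marked where they appear, and a few genes the rule names are not reported here. Alternatives were RLE and upper-quartile scaling, no filter, DESeq2 1.42.0, limma-voom, a replicate block, a minimum fold change of 2, thinning to the smallest total, the compared groups alone and each library left out in turn. Promoters came from the RefSeq table for GRCm38.p6, which is not the build of the counts, so no coordinates were carried over between them.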

Additional observations from a re-analysis of the deposited data

Results flagged for a closer look

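Il23a, a subunit of interleukin 23, differed between times after stroke when day 3 was set directly against day 7. The log2 fold change was 6.94 ± 0.77 (SE; edgeR adjusted p = 0.0145), from 0.291 and 0.257 CPM at day 7 to 47.4 and 19.3 CPM at day 3, higher in 2 of 2 day 3 libraries. It was at 1.64 and 1.62 CPM in sham, so that day 7 lay under sham and day 3 above it. The call was lost without day 3 replicate 1, day 7 replicate 1 or day 7 replicate 2, when edgeR called 0 genes. Groups of 2 libraries are too small for a check of single outlying samples.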

How the results depend on the processing

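Of the 1147 genes called against sham 127 kept their call in all 24 alternatives. Their direction held in each, which their choice by groups that do not overlap largely fixes. Of the 165 named genes 153 were called, and 37 of these kept the call in all 24. For genes called, day 3 against sham, the number was 2667 with DESeq2, 2002 with the replicate block, 504 with a minimum fold change of 2 and 1802 with both day 21 libraries left out, the last chosen after seeing the data. For genes called and not overlapping, day 3 against sham, these settings gave 2649, 1964, 504 and 1799. With 1 library left out it ranged from 225 to 1815 (225 to 1812 without overlap), and a lone library left in a group is then assumed to vary like the other groups. RLE scaling gave 1132, upper-quartile scaling 1198, no filter 1132, limma-voom 1391 (673 higher and 718 lower), thinning 1259 and the compared groups alone 1281. Upper-quartile scaling shifted the median log2 fold change of all genes by 0.127.

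Against day 1 the count was 0 and became 5 with DESeq2, and it stayed between 0 and 0 with 1 library left out. Against day 7 it was 1 and became 116 with DESeq2, 8 with limma-voom, 31 with the compared groups alone and 5 without both day 21 libraries, with a range of 0 to 6 for single libraries. Against the mean of the other stroke times it was 8, all higher, and became 135 with DESeq2 (47 higher and 88 lower), 9 with limma-voom (4 higher and 5 lower), 11 with the replicate block (9 higher and 2 lower) and 3 with a minimum fold change of 2, with a range of 1 to 57. Genes that were not called changed sign. Cx3cr1, at -0.04, was 0.063 with upper-quartile scaling, 0.0246 with limma-voom, 0.27 with the replicate block, and with single libraries left out it ran from -0.58 (without sham replicate 2) to 0.86 (without sham replicate 1), with 0.30 without day 3 replicate 1. Il1b, at 0.17, was -0.03 without sham replicate 1, and ran from -0.76 without day 3 replicate 1 to 0.74 without day 3 replicate 2. Lpl, at -0.14, ran from -0.41 without day 3 replicate 2 to 0.0827 without day 3 replicate 1. Csf1r, at 0.71, ran from -1.10 without day 3 replicate 2 to 1.49 without day 3 replicate 1. The cause was not tested.

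Replicate numbers are shared by all groups, but no label ties equal numbers to an animal or a batch. Deviations from the group means correlated over genes with r = 0.242 between sham and day 3 and with 0.071 to 0.677 over all 21 pairs of groups. The replicate 2 libraries were 6.6 to 9.19 times deeper, so low genes rest mainly on them.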

Other observations

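Genes in none of the lists were among those called in every alternative, and those given here were chosen after their values were seen. Tnfsf9, the ligand of the costimulatory receptor 4-1BB, had 2.18 and 2.41 CPM in sham and 567 and 436 CPM at day 3 (7.77 ± 0.53 SE, edgeR adjusted p = 6.78e-05). Gpr84, a receptor for medium-chain fatty acids, had 3.82 and 3.54 CPM in sham and 152 and 129.9 CPM at day 3 (5.26 ± 0.53 SE, edgeR adjusted p = 0.000487). Cd83, a surface protein of activated antigen-presenting cells, went from 52.9 and 44.8 CPM to 1382 and 1232 CPM (4.74 ± 0.61 SE, edgeR adjusted p = 0.00176). Among lower genes, Alox15, a lipoxygenase, went from 93.6 and 144 CPM to 8.95 and 3.16 CPM (-4.31 ± 0.65 SE, edgeR adjusted p = 0.00378), and Il16, a leukocyte attractant, from 518 and 420.4 CPM to 48.4 and 71.6 CPM (-2.97 ± 0.46 SE, edgeR adjusted p = 0.00423).

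Median fold changes of 3 lists of housekeeping complexes differed between the 2 replicate numbers, and edgeR called 1 of their genes. The median log2 fold change of 38 ribosomal protein genes was 1.78 in replicate 1 and -0.96 in replicate 2, and 34 of them overlapped between groups. For 40 oxidative phosphorylation genes the medians were 1.75 and -0.80, with 31 overlapping. For 31 proteasome genes they were 1.64 and -0.05, with 17 overlapping and 1 called higher.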
